A study of Rattus norvegicus with 15 samples.

Results

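The comparison described here sets 3 lumbar spinal cord libraries from rats with chronic constriction injury (CCI) against 3 from sham-operated rats, 6 of the 15 libraries of the series. In CCI, ligatures are tied loosely around the left common sciatic nerve at mid-thigh, a widely used model of neuropathic pain. In sham rats the nerve was exposed and left without ligatures. All 6 libraries came from adult male Sprague-Dawley rats, from segments L4 to L6 on the operated side, taken on postoperative day 10, and neither group received any of the preparations given to the other 9 libraries. The members were the 14927 of 34202 counted rows that reached a CPM of 1 in at least 3 of the 6 libraries. CPM, counts scaled to a common library size after TMM adjustment, compares 1 gene between libraries and not 2 genes with each other. The labels give 3 sequenced samples per group without tying each to 1 animal, and p-values measure the spread between these samples, which may be technical.

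The sciatic nerve carries the axons of sensory neurons, whose cell bodies lie in the dorsal root ganglia, and of motoneurons, whose cell bodies lie in the lumbar cord. After such an injury microglia, the resident macrophages of the cord, are known to multiply and activate, injured neurons are known to switch on a regrowth programme, and the neuropeptides of the dorsal horn are known to shift. The tissue, from the operated side of the cord, holds many cell types, so fewer cells of a type and less RNA per cell cannot be told apart.

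The tables hold Ensembl rat identifiers and no symbols, and the reference table used here pairs none of them with a symbol. Gene names below were written from general knowledge of Ensembl rat identifiers, and no table could check them. The identifier is printed with each called gene whose values are given, so that it can be looked up. As a partial check, a mean level was written beside 250 of the 360 names. Of 69 names expected to be very abundant, 60 lay at or above 200 CPM over the 15 libraries, a level that 2.32% of all rows reach. Of 181 expected to be moderate, 156 lay at or above 10 CPM, which 29.3% of all rows reach. Names that missed their level were dropped, 316 were used and 292 of these were tested. A share of the remaining names may still be wrong, and a level met by chance would not show it. Among the called genes, Ngfr, Calca, Tlr2, Ccl2, Cybb, Hk2, Top2a, Myc, Timp1, Slc17a7, Mt-nd3, Mt-nd4l and Mt-atp8 had no level check. The names Ldha, Anxa2, Cybb, Grn, Hk2, Ctsl, Gadd45a and Camk2a were written after the comparison had been seen.

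Library totals ranged from 19650947 to 20446353 counts in sham and from 17616561 to 22757104 in CCI. The first principal component held 42.5% of the variance and separated the groups, with sham at -25.1, -24.4 and -17.7 and CCI at 20.5, 12.7 and 33.9. The 3 genes with the most counts took 8.76, 8.49 and 9.60% of counts in sham and 7.55, 7.53 and 6.78% in CCI. Names were kept for 5 of 10 neuronal, 7 of 7 oligodendrocyte and 4 of 6 astrocyte markers, and each kept member was detected. This is no check of the labelled tissue, since names below their expected level had been dropped. Of the 14 lumbar Hox genes 0 could be named, and the segment was not checked.

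With edgeR's quasi-likelihood test, 491 of 14927 genes (3.29%) were called at an adjusted p under 0.05. Of these, 334 were higher in CCI (2.24%) and 157 lower (1.05%), and in each of the 491 the 3 CCI values lay on 1 side of the 3 sham values. That separation held for 14.3% of all genes upward and 12.5% downward. The risen genes moved further, with a median log2 fold change of 0.84 against -0.41 for the fallen and 0.01 over all genes. At least a doubling was seen in 142 risen genes, and at least a halving in 13 fallen ones. CCI replicate 3 was the highest library in 242 of the 334 risen genes and the lowest in 90 of the 157 fallen. Upper-quartile scaling called 275 higher and 208 lower, so that 56.9% were higher against 68.0% with TMM. The calls depended on the libraries in the fit: without sham replicate 1 the count was 1, without CCI replicate 1 it was 85, without CCI replicate 3 it was 135, without sham replicate 3 it was 247, without sham replicate 2 it was 265, and fitting all 15 libraries left 4. Names were available for 45 called genes, 27 risen and 18 fallen, and 446 called genes have no name here. The 45 are 15.4% of the 292 named genes tested, above the 3.29% of all genes, so the counts within lists below stand against a set of names that is itself rich in calls. Each list is only partly named.

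**Figure D1:**
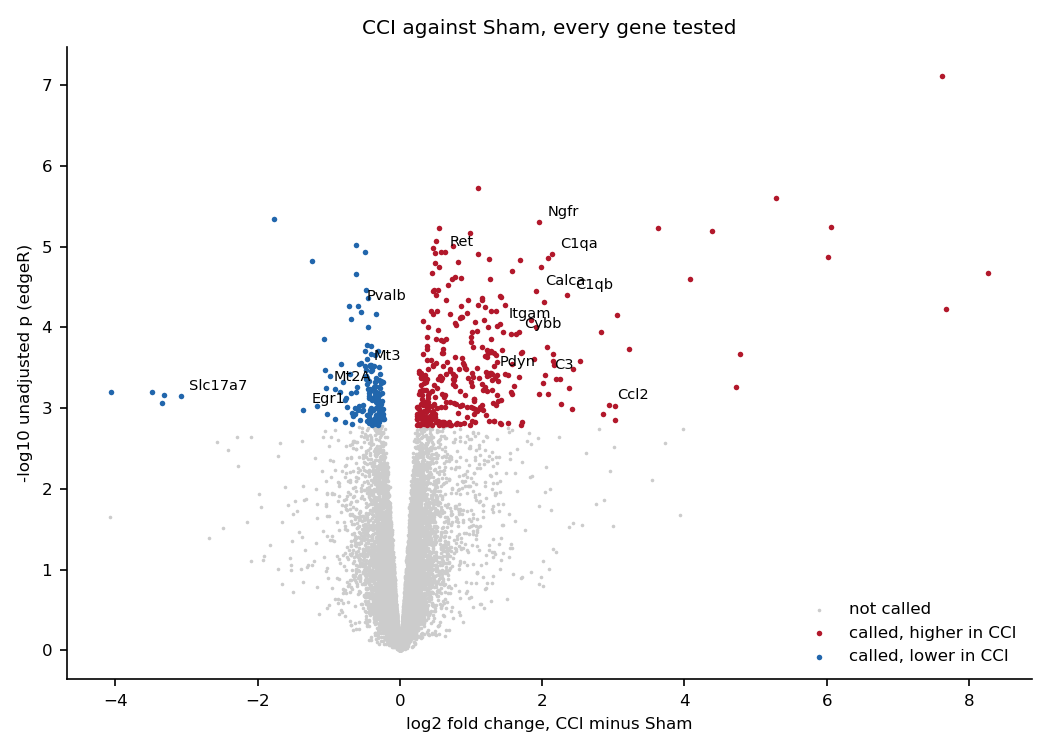
Log2 fold change of CCI minus sham on the horizontal axis against -log10 of the unadjusted edgeR p on the vertical axis, 1 point per gene tested. Red points are the 334 genes called higher and blue points the 157 called lower, the red spreading further from 0 than the blue, with some named genes labelled.

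Immune genes of the cord were among those that rose. All 3 complement genes with a name rose, with a median log2 fold change of 2.14. Without sham replicate 1, 0 of these 3 calls were kept. C1qa and C1qb encode chains of C1q, which starts the classical complement pathway. C1qa (ENSRNOG00000012807) was at 78, 85 and 85.8 CPM in sham and 348, 248 and 499 CPM in CCI, which gives 2.14 ± 0.22 (SE) on the log2 scale (adjusted p = 0.00888). C1qb (ENSRNOG00000012804) was at 26.9, 26.6 and 27.3 CPM in sham and 120.1, 85.8 and 206 CPM in CCI, which gives 2.35 ± 0.29 (SE) on the log2 scale (adjusted p = 0.0129). The 3 CCI libraries were all high and the groups did not overlap for either gene. C3, the protein on which the complement pathways converge, rose as well. C3 (ENSRNOG00000046834) was at 45.3, 63 and 94.6 CPM in sham and 201, 210.1 and 427 CPM in CCI, which gives 2.05 ± 0.35 (SE) on the log2 scale (adjusted p = 0.0302). The lowest CCI value was still above the highest sham value, with CCI replicate 3 far above the others.

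Of 9 named microglia and macrophage genes tested, 5 rose, 0 fell and 4 were not called, and their median log2 fold change was 1.03. Of these 5 calls, 0 were kept without sham replicate 1, 1 without CCI replicate 1 and 3 without sham replicate 2. Among all named genes, 15.4% were called. Of this list, Cybb, Cd14 and Lgals3 were named after the comparison had been seen. Itgam encodes the CD11b integrin chain. Itgam (ENSRNOG00000019728) was at 13.1, 15.2 and 17.1 CPM in sham and 39.5, 29.8 and 51.2 CPM in CCI, which gives 1.41 ± 0.19 (SE) on the log2 scale (adjusted p = 0.0169). Aif1 encodes the microglial protein Iba1. Aif1 (ENSRNOG00000000853) was at 13.1, 12.5 and 17.5 CPM in sham and 32.8, 26.6 and 49.1 CPM in CCI, which gives 1.33 ± 0.23 (SE) on the log2 scale (adjusted p = 0.0302). Csf1r is the receptor on which microglia depend for survival. Csf1r (ENSRNOG00000018414) was at 114, 101 and 119 CPM in sham and 216, 179 and 287 CPM in CCI, which gives 1.03 ± 0.16 (SE) on the log2 scale (adjusted p = 0.0238). In these 3 genes the groups did not overlap, and CCI replicate 3 was highest each time. Tyrobp (ENSRNOG00000020845), the adaptor of the receptor Trem2, rose, at 14.3, 15.4 and 18.9 CPM in sham and 33.2, 31.9 and 45.5 CPM in CCI, or 1.18 on the log2 scale (adjusted p = 0.0158). Cybb (ENSRNOG00000003622), the catalytic subunit of the phagocyte NADPH oxidase, rose, at 5.11, 3.47 and 3.7 CPM in sham and 11.7, 9.75 and 16.8 CPM in CCI, or 1.64 on the log2 scale (adjusted p = 0.0191). The 4 members not called were Lyz2 at a log2 fold change of 0.48, Cd14 at 0.59, Apoe at -0.05 and Lgals3 at -0.77. The 2 marker genes of microglia with a name, Aif1 and Csf1r, summed to 127, 114 and 136 CPM in sham and 249, 206 and 336 CPM in CCI. The part of cell number in these rises was not tested.

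Of 17 named cytokine, chemokine and NF-kB genes, 2 rose, 1 fell and 14 were not called, close to the share of all named genes, with a median log2 fold change of 0.34. Ccl2, a chemokine that draws monocytes, was near the detection limit in sham. Ccl2 (ENSRNOG00000007159) was at 0.651, 0.196 and 0.317 CPM in sham and 2.32, 1.61 and 5.17 CPM in CCI, which gives 2.93 ± 0.57 (SE) on the log2 scale (adjusted p = 0.0400). The groups did not overlap, and all 3 sham values were below 1 CPM. The value was 3.52 without sham replicate 1 but 2.33 when CCI replicate 3 was left out, and the call was kept only on leaving out CCI replicate 2 among the 6 libraries. Tlr2 (ENSRNOG00000009822), a receptor for microbial and damage signals, rose, at 4.76, 4.11 and 4.76 CPM in sham and 9.95, 7.91 and 13.6 CPM in CCI, or 1.20 on the log2 scale (adjusted p = 0.0302). Cxcl12, the ligand of Cxcr4, fell. Cxcl12 (ENSRNOG00000013589) was at 53.8, 47.8 and 50 CPM in sham and 36.8, 40.2 and 37.3 CPM in CCI, which gives -0.41 ± 0.07 (SE) on the log2 scale (adjusted p = 0.0280). Every CCI value was below every sham value. Il1b had 6, 3 and 0 counts in sham and 10, 10 and 9 in CCI, Il6 had 4, 5 and 2 against 9, 4 and 18, and Tnf had 0, 0 and 0 against 0, 0 and 2, so these 3 were below the filter and not tested.

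B2m (ENSRNOG00000017123), the light chain of MHC class I, rose, at 427, 392 and 559.5 CPM in sham and 717, 639 and 733 CPM in CCI, or 0.60 on the log2 scale (adjusted p = 0.0484). The B2m call was kept in 8 of 17 alternative fits. It was lost with RLE scaling and on leaving out any 1 library except sham replicate 3. Cd74, the invariant chain of MHC class II, was not called. Cd74 (ENSRNOG00000018735) was at 5.11, 10.7 and 19.4 CPM in sham and 12, 8 and 20.3 CPM in CCI. The groups overlapped. None of 6 named interferon-response genes was called, while 6 of 6 were positive, with a median log2 fold change of 1.27. Irf7, a transcription factor of the interferon response, shows how the libraries spread. Irf7 (ENSRNOG00000017414) was at 22.4, 13.8 and 88.7 CPM in sham and 101, 65 and 149 CPM in CCI. Sham replicate 3 lay within the range of the CCI libraries, and the groups overlapped at an adjusted p of 0.262.

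Stat3 (ENSRNOG00000019742), which relays cytokine signals in glia and neurons, rose, at 134, 126 and 134 CPM in sham and 163, 156 and 183 CPM in CCI, or 0.35 on the log2 scale (adjusted p = 0.0400). Grn encodes progranulin, a lysosomal growth factor made by microglia and neurons. Grn (ENSRNOG00000021031) was at 49.2, 44.7 and 59.5 CPM in sham and 115, 93.9 and 164 CPM in CCI, which gives 1.28 ± 0.20 (SE) on the log2 scale (adjusted p = 0.0246). Its groups did not overlap. Anxa2 (ENSRNOG00000010362), a calcium-dependent membrane-binding protein, rose, at 65.2, 54.6 and 73.5 CPM in sham and 103, 125 and 124 CPM in CCI, or 0.87 on the log2 scale (adjusted p = 0.0154).

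**Figure D2:**
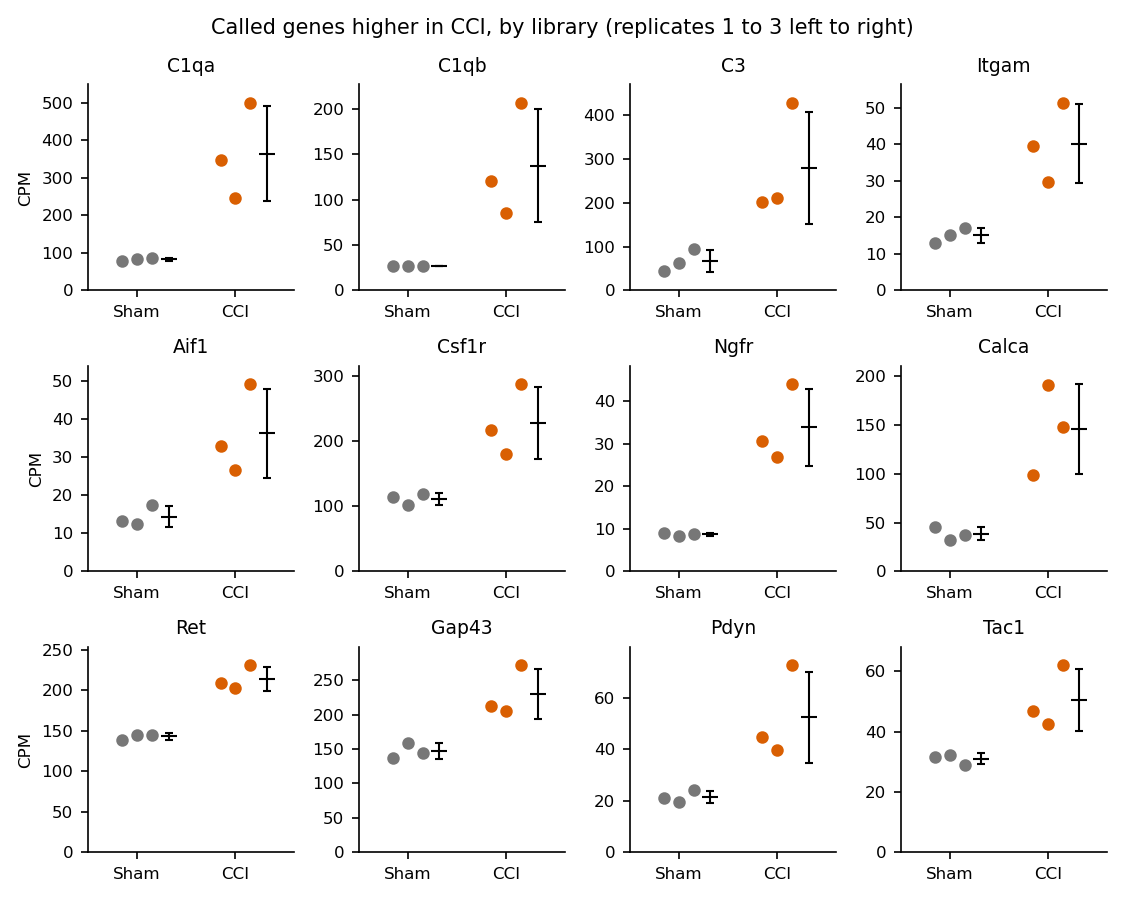
CPM of 12 called genes in each library, 1 panel per gene, with sham in grey and CCI in orange, and the mean and SD of the 3 libraries in black beside the points. In each panel the 3 CCI points lie above the 3 sham points, and for C1qa, C1qb and C3 the third CCI library is the highest.

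Genes of nerve injury and regrowth rose in 4 of 12 named members, with 0 called lower and a median log2 fold change of 0.52. Of these 4 calls, 0 were kept without sham replicate 1, and 2 each without CCI replicate 1 or sham replicate 3. Among all named genes, 15.4% were called. Of this list, Gadd45a was named after the comparison had been seen. Ngfr encodes the p75 neurotrophin receptor, which is known to return to injured motoneurons. Ngfr (ENSRNOG00000005392) was at 9.01, 8.22 and 8.83 CPM in sham and 30.7, 26.8 and 44 CPM in CCI, which gives 1.96 ± 0.18 (SE) on the log2 scale (adjusted p = 0.00888). CCI values were all more than those of sham, and the 3 sham values lay close together. Ret is the signalling receptor for the GDNF family of survival factors. Ret (ENSRNOG00000014751) was at 139, 145 and 145 CPM in sham and 209, 202 and 231 CPM in CCI, which gives 0.58 ± 0.06 (SE) on the log2 scale (adjusted p = 0.00888). Gap43 encodes a growth-cone protein. Gap43 (ENSRNOG00000001528) was at 137, 159 and 144 CPM in sham and 213, 205 and 271 CPM in CCI, which gives 0.65 ± 0.11 (SE) on the log2 scale (adjusted p = 0.0302). Neither gene overlapped between the groups. Gadd45a (ENSRNOG00000005615), a growth-arrest and DNA-damage gene known to rise in injured neurons, rose, at 31.2, 31.1 and 31.9 CPM in sham and 40.1, 41 and 50.3 CPM in CCI, or 0.48 on the log2 scale (adjusted p = 0.0398).

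Atf3, the transcription factor commonly used to mark axotomised neurons, was not called, at an adjusted p of 0.0720. Atf3 (ENSRNOG00000003745) was at 1.15, 2.15 and 7.29 CPM in sham and 14.8, 13.2 and 36.8 CPM in CCI. The lowest CCI value was above the highest sham value, with both groups widely spread. Hspb1, a small heat shock protein of the same programme, had a log2 fold change of 0.46 at an adjusted p of 0.0615. Jun was at 0.08 and Gal at -0.48, both with overlapping groups.

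Of 11 named neuropeptide, opioid and receptor genes, 3 rose, 0 fell and 8 were not called, with a median log2 fold change of 0.32. Of these 3 calls, 0 were kept without sham replicate 1, and 1, that of Calca, without CCI replicate 1, sham replicate 2 or sham replicate 3. Calca encodes calcitonin gene-related peptide, made by sensory neurons and by motoneurons. Calca (ENSRNOG00000011130) was at 45.6, 32.6 and 37.5 CPM in sham and 98.5, 191 and 148 CPM in CCI, which gives 1.92 ± 0.23 (SE) on the log2 scale (adjusted p = 0.0121). CCI replicate 2 was the highest and the groups did not overlap. Pdyn encodes the dynorphin precursor of dorsal horn neurons. Pdyn (ENSRNOG00000026036) was at 21.2, 19.4 and 24.1 CPM in sham and 44.7, 39.9 and 72.7 CPM in CCI, which gives 1.28 ± 0.22 (SE) on the log2 scale (adjusted p = 0.0302). Tac1 encodes the precursor of substance P. Tac1 (ENSRNOG00000007374) was at 31.7, 32.3 and 29 CPM in sham and 46.7, 42.5 and 62 CPM in CCI, which gives 0.70 ± 0.13 (SE) on the log2 scale (adjusted p = 0.0388). All 3 CCI libraries were above sham in both genes. Penk, the enkephalin precursor, was not called. Penk (ENSRNOG00000008943) was at 142, 146 and 132 CPM in sham and 169, 148 and 206 CPM in CCI. The values did not overlap, at an adjusted p of 0.161. Bdnf, a growth factor released by microglia and sensory neurons, had a log2 fold change of 0.63 at an adjusted p of 0.162.

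A marker of tissue outside the cord stands beside these values. Trpv1, a channel of dorsal root ganglion neurons, was at 1.95, 3.03 and 1.96 CPM in sham and 1.32, 1.25 and 1.28 CPM in CCI. The part of sensory ganglion or root tissue in the Calca values was not tested.

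The neurotransmission genes with a name showed no calls in 2 lists. Of 8 glutamate receptor genes 0 were called (median log2 fold change 0.17), and of 5 GABA and glycine genes 0 were called (0.20). Gria1, an AMPA receptor subunit, was at 0.37 with an adjusted p of 0.135, and Slc12a5, the chloride exporter KCC2 of inhibition, at 0.25 with 0.116. Camk2a (ENSRNOG00000018712), a kinase of excitatory synapses, rose, at 29.8, 33.1 and 30 CPM in sham and 40.8, 38.3 and 48.5 CPM in CCI, or 0.46 on the log2 scale (adjusted p = 0.0497). The Camk2a call was kept in 5 of 17 alternative fits. It was lost with limma voom, with RLE or upper-quartile scaling, and on leaving out any 1 library except CCI replicate 2. Slc17a7, the vesicular glutamate transporter VGLUT1 that marks the terminals of large sensory afferents and of forebrain neurons, had the lowest log2 fold change of the named genes. Slc17a7 (ENSRNOG00000020650) was at 3.55, 9.39 and 6.03 CPM in sham and 1.49, 0.402 and 0.278 CPM in CCI, which gives -3.08 ± 0.58 (SE) on the log2 scale (adjusted p = 0.0360). The levels were low throughout, and the groups did not overlap. The value was -4.17 without CCI replicate 1, where the call was kept, and between -3.37 and -2.69 without any 1 of the other 5 libraries, where it was lost, as it was with limma voom (adjusted p = 0.0502). Pvalb encodes parvalbumin, a calcium buffer of proprioceptive neurons and of inhibitory interneurons. Pvalb (ENSRNOG00000006471) was at 90.5, 85.8 and 82.5 CPM in sham and 56.1, 63.3 and 53.1 CPM in CCI, which gives -0.59 ± 0.08 (SE) on the log2 scale (adjusted p = 0.0139). The 3 CCI values were all below the 3 sham values.

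The mitochondrial genome encodes 13 proteins of the respiratory chain, of which 9 fell and 4 were not called, and 13 of 13 had a negative fold change, from -0.52 to -0.14 with a median of -0.32. Of these 9 calls, 0 were kept without sham replicate 1, CCI replicate 1 or CCI replicate 3, 2 without CCI replicate 2, 4 without sham replicate 3 and 7 without sham replicate 2. Mt-nd2 is a subunit of NADH dehydrogenase, and Mt-co2 and Mt-co3 are subunits of cytochrome c oxidase. Mt-nd2 (ENSRNOG00000031033) was at 5194, 4809 and 5141 CPM in sham and 3835, 3911 and 4093 CPM in CCI, which gives -0.36 ± 0.06 (SE) on the log2 scale (adjusted p = 0.0246). Mt-co3 (ENSRNOG00000030700) was at 11561, 10307 and 11176 CPM in sham and 8454, 8615 and 8634 CPM in CCI, which gives -0.36 ± 0.06 (SE) on the log2 scale (adjusted p = 0.0280). The CCI libraries were close to each other and below all of sham for both genes. Mt-co2 (ENSRNOG00000030371) was at 1126, 935 and 862 CPM in sham and 619.7, 710.1 and 713 CPM in CCI, which gives -0.52 ± 0.10 (SE) on the log2 scale (adjusted p = 0.0415). Mt-co1, with more counts than any other mitochondrial gene, was not called, at an adjusted p of 0.0949. The 13 genes together took 6.66, 6.23 and 6.44% of counts in sham and 5.47, 5.46 and 5.41% in CCI. The share of the 3 genes with the most counts moved the same way, and its part in the calls was not tested. Ldha (ENSRNOG00000013009), a subunit of lactate dehydrogenase, rose, at 82.6, 88.2 and 88.5 CPM in sham and 118, 118 and 135 CPM in CCI, or 0.52 on the log2 scale (adjusted p = 0.0146). Hk2 (ENSRNOG00000006116), a hexokinase that starts glycolysis, rose, at 17.5, 14.4 and 18.4 CPM in sham and 26.1, 25.7 and 32.7 CPM in CCI, or 0.75 on the log2 scale (adjusted p = 0.0302). Other named glycolysis genes were not called: Eno1 was at -0.02, Pkm at 0.10, Gapdh at -0.05 and Aldoc at -0.15 on the log2 scale, as was the glucose transporter Slc2a1 at -0.06. These genes form no list fixed for the comparison and were named after their values were seen.

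The list of astrocyte genes was divided. Of 18 named, 2 rose (Stat3 and Timp1), 4 fell (Mt3, Mt2A, S100b and Glul) and 12 were not called, with a median log2 fold change of -0.04. Of these 6 calls, 0 were kept without sham replicate 1, CCI replicate 1 or CCI replicate 3, 1 on leaving out sham replicate 2, and 2 on leaving out either CCI replicate 2 or sham replicate 3. Mt2A and Mt3 encode metallothioneins, small proteins that bind zinc and copper and whose similar copies may share reads. Mt2A (ENSRNOG00000043098) was at 73.4, 68.3 and 41.8 CPM in sham and 31.4, 28.9 and 28.7 CPM in CCI, which gives -1.04 ± 0.19 (SE) on the log2 scale (adjusted p = 0.0335). Mt3 (ENSRNOG00000018958) was at 306, 293 and 256 CPM in sham and 187, 215 and 206 CPM in CCI, which gives -0.49 ± 0.08 (SE) on the log2 scale (adjusted p = 0.0280). CCI values were below sham in both, and sham replicate 3 was the lowest sham library in both. S100b (ENSRNOG00000001295) was at 2743, 2635 and 3089 CPM in sham and 2204, 2247 and 2017 CPM in CCI, which gives -0.39 ± 0.07 (SE) on the log2 scale (adjusted p = 0.0382). S100b is a calcium-binding protein of astrocytes and oligodendrocytes. Glul (ENSRNOG00000049560), the glutamine synthetase that clears glutamate, fell, at 2277, 2309 and 2265 CPM in sham and 1949, 1899 and 1676 CPM in CCI, or -0.31 on the log2 scale (adjusted p = 0.0478). Timp1 (ENSRNOG00000010208), an inhibitor of matrix proteases, rose, at 2.85, 3.47 and 4.65 CPM in sham and 7.41, 7.2 and 13 CPM in CCI, or 1.33 on the log2 scale (adjusted p = 0.0484). Gfap, the intermediate filament of astrocytes, was not called. Gfap (ENSRNOG00000002919) was at 3462, 3357 and 4059 CPM in sham and 4113, 3486 and 3358 CPM in CCI. The groups overlapped, and the log2 fold change was 0.01. The 4 named astrocyte markers, Gfap, Slc1a2, Aqp4 and Gja1, had log2 fold changes between -0.05 and 0.01, and none was called. These markers summed to between 5683 and 6795 CPM in sham and between 5692 and 6630 CPM in CCI.

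Metallothionein transcription is known to respond to metals through the metal response element. The 250 bases before the start of Mt2A and Mt3 are shown because the pair fell together; they are from RefSeq, build GRCr8. That of Mt2A lies at chr19:10838709-10838958 and that of Mt3 at chr19:10856081-10856330, both on the minus strand. Capitals mark TGCACNC or TGCGCNC on either strand.
Mt2A: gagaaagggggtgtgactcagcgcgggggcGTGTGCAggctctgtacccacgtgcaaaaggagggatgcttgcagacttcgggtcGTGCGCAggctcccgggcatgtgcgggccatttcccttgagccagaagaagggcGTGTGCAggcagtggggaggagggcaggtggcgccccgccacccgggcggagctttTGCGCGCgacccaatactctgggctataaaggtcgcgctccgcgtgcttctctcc
Mt3: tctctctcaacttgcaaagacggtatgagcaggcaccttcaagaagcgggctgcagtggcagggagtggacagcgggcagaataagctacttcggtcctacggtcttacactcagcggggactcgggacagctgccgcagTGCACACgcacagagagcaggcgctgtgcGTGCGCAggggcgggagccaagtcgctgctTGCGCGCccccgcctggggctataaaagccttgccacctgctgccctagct
Mt2A held 4 matches and Mt3 held 3. TGCACNC is found in 10.3% of 33469 rat promoters of this length and TGCGCNC in 11.8%. The start regions of C1qa at chr5:154419934-154420183 and C1qb at chr5:154407828-154408077, both on the minus strand, are shown for the pair that rose together, with the ETS core GGAAGT in capitals on either strand.
C1qa: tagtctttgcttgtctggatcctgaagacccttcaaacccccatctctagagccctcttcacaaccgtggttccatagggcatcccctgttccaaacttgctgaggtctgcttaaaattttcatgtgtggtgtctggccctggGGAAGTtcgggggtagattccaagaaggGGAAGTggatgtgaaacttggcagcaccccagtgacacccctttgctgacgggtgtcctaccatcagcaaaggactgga
C1qb: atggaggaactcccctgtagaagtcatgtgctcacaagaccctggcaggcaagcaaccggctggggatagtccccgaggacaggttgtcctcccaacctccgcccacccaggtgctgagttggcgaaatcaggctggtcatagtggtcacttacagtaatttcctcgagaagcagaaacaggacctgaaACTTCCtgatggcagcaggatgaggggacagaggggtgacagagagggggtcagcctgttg
C1qa held 2 matches and C1qb held 1, against 19.2% of all promoters with at least 1. Sequences were matched by symbol, and 30 of the 45 called genes with a name had one. The 10 motifs searched were chosen after the results were seen. Among those 30 promoters, GGAAGT was found in 7, TGCGCNC in 7, TGCACNC in 5, TTCNNNGAA in 2 (7.67% of all promoters), TGACTCA in 2 (4.05%), TTCCNNGAA in 1 (4.26%), TGACGTCA in 1 (1.59%), a serum response element in 1, GAGGAAGT in 0 (2.04%) and a second form of the serum response element in 0 (0.0747%). The 1 with the serum response element, which 0.0299% of all promoters hold in that form, was Egr1. GGAAGT lies within GAGGAAGT, and TTCNNNGAA can overlap TTCCNNGAA. A match is a run of letters and not a measured site.

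Of 13 named immediate early genes, 1 fell, 0 rose and 12 were not called, a smaller share of calls than the 15.4% of all named genes. Their median log2 fold change was -0.28, with 4 positive and 9 negative. Egr1 is a transcription factor switched on within minutes by neuronal activity. Egr1 (ENSRNOG00000019422) was at 31, 51.2 and 74.3 CPM in sham and 20.8, 21.2 and 18.8 CPM in CCI, which gives -1.36 ± 0.27 (SE) on the log2 scale (adjusted p = 0.0415). The Egr1 call was kept in 8 of 17 alternative fits, and was lost with limma voom and on leaving out any 1 library. The CCI libraries were close together while the sham values spread widely, with replicate 3 the highest. Dusp1, a phosphatase of the MAP kinases, had the same order of sham libraries. Dusp1 (ENSRNOG00000003977) was at 65, 111 and 176 CPM in sham and 49.3, 49.6 and 36.7 CPM in CCI. It was not called, at an adjusted p of 0.0614. Btg2 was at 17.9, 48.4 and 111 CPM in sham and 12.9, 12.4 and 7.72 in CCI, with an adjusted p of 0.0683. Fos was at a log2 fold change of -0.25 with overlapping groups. What set sham replicate 3 apart in these genes was not tested.

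None of 9 named myelin and oligodendrocyte genes was called, and 9 of 9 were negative, with a median log2 fold change of -0.24. Mbp, a major protein of compact myelin, gives the pattern. Mbp (ENSRNOG00000016516) was at 40472, 38673 and 47015 CPM in sham and 33645, 33082 and 28552 CPM in CCI. The groups did not overlap, at an adjusted p of 0.0652. The 7 oligodendrocyte markers summed to between 69940 and 84263 CPM in sham and between 53240 and 61310 CPM in CCI. The 5 named meningeal fibroblast markers summed to between 440 and 515 CPM in sham and between 329 and 397 CPM in CCI. That sum is mostly Ptgds, which had a mean of 362 CPM over the 15 libraries, with Igf2 next at 37.0 CPM. The 5 neuronal markers summed to between 9890 and 10504 CPM in sham and between 9461 and 10896 CPM in CCI. The part of tissue composition in the calls was not tested.

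Of 10 named cell cycle genes 1 was called, a smaller share than the 15.4% of all named genes, and the median log2 fold change was 0.41. Top2a (ENSRNOG00000053047), the topoisomerase of dividing cells, rose, at 1.9, 3.08 and 2.22 CPM in sham and 5.7, 4.65 and 8.11 CPM in CCI, or 1.35 on the log2 scale (adjusted p = 0.0400). Mki67, Cdk1 and Ccna2, other genes of dividing cells, were not called, at log2 fold changes of 1.11, 1.39 and 1.58 and adjusted p of 0.0815, 0.0749 and 0.0528. Myc (ENSRNOG00000004500), a transcription factor of growth, rose, at 3.05, 3.52 and 3.49 CPM in sham and 7.02, 5.05 and 8.11 CPM in CCI, or 1.00 on the log2 scale (adjusted p = 0.0406). Ctsl (ENSRNOG00000018566), a lysosomal protease, fell, at 144, 159 and 159.6 CPM in sham and 125, 128 and 118 CPM in CCI, or -0.32 on the log2 scale (adjusted p = 0.0375). Of 10 clock genes, 8 cholesterol synthesis genes and 9 heat shock and endoplasmic reticulum stress genes, 0 were called.

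**Figure D3:**
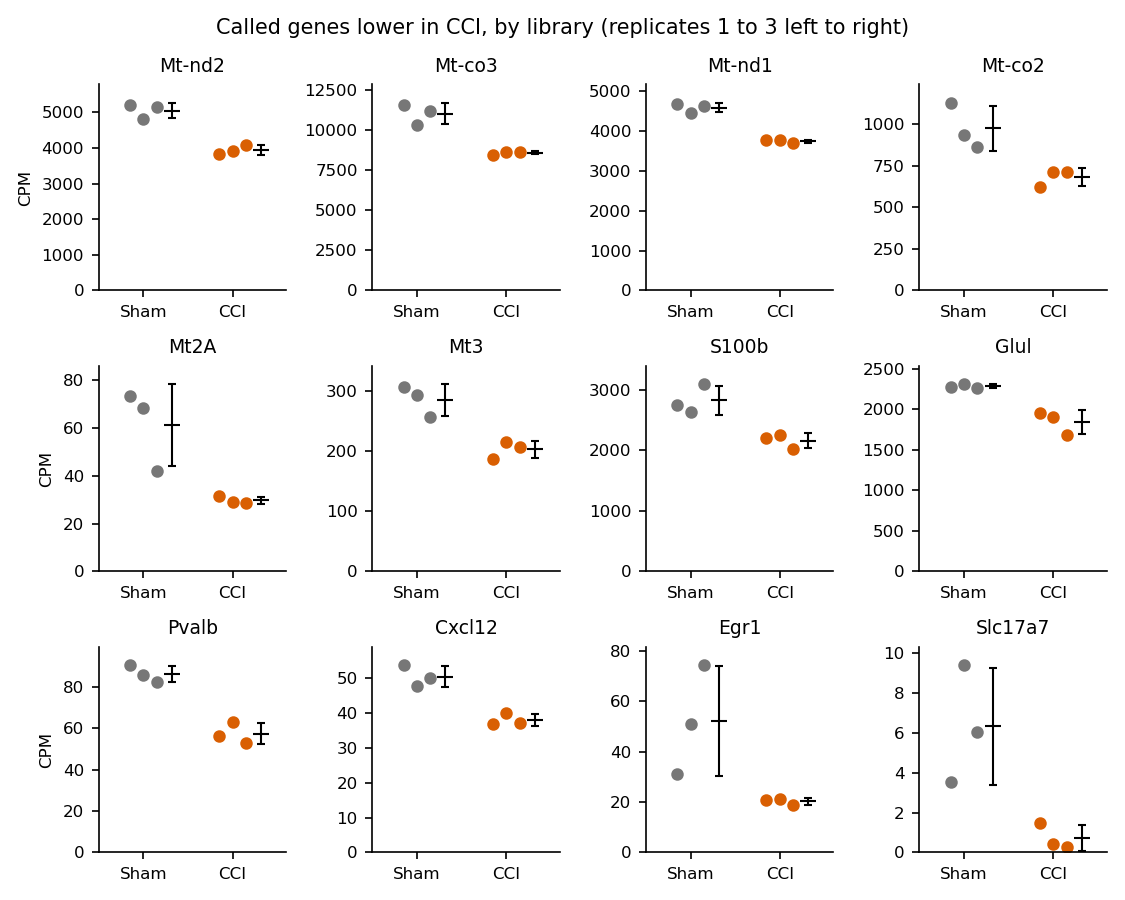
CPM of 12 called genes in each library, 1 panel per gene, with sham in grey and CCI in orange, and the mean and SD of the 3 libraries in black beside the points. In each panel the 3 CCI points lie below the 3 sham points, and the sham points of Egr1, Mt2A and Slc17a7 are spread more widely than those of Pvalb.

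**Figure D4:**
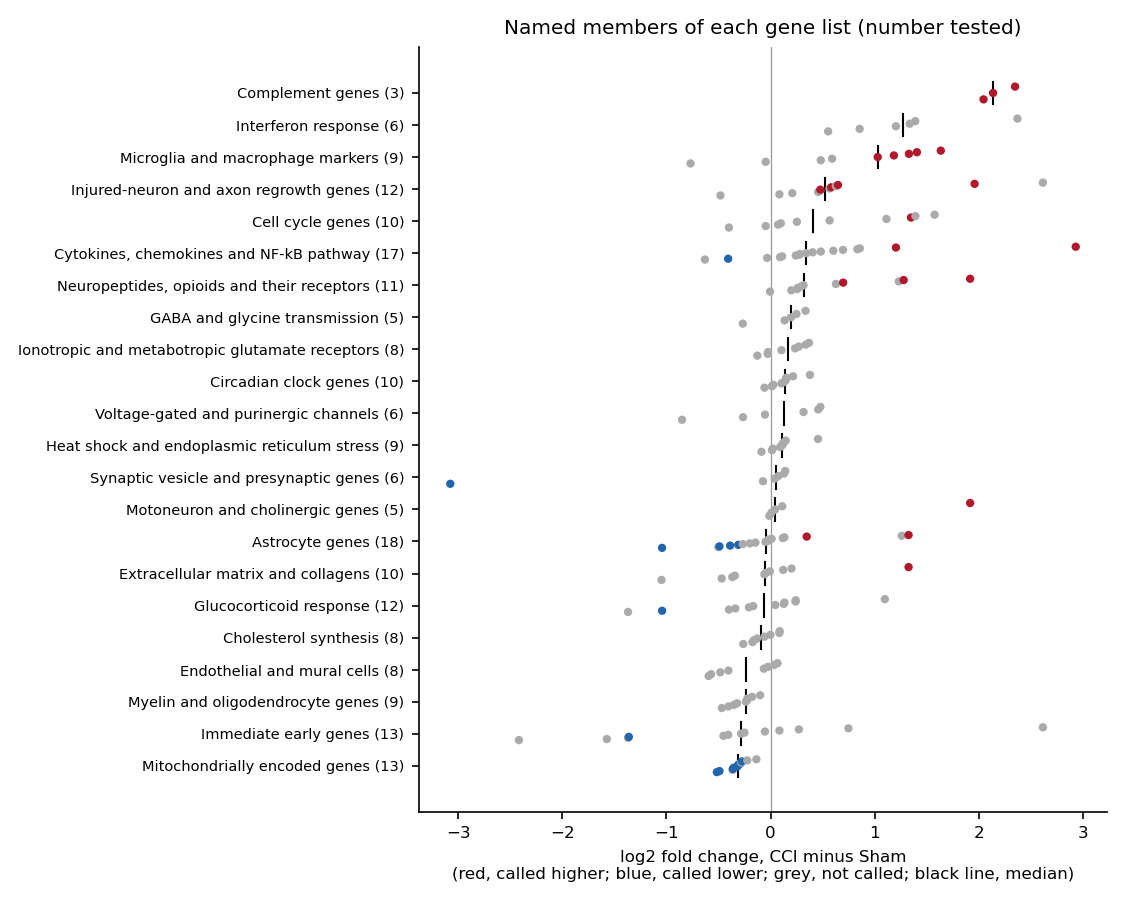
Log2 fold change of CCI minus sham for the named members of each gene list, 1 point per gene, with the list's median as a black line and the number tested in brackets. Complement genes lie at the top with 3 of 3 called higher, and mitochondrially encoded genes at the bottom with 9 of 13 called lower.

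Identifiers without a certain name include those of smallest p. ENSRNOG00000051472 was at 0.05, 0 and 0.11 CPM in sham and 12.4, 8.76 and 12.4 CPM in CCI. It was close to 0 in all sham libraries, and its adjusted p was 0.00114. ENSRNOG00000001416 was at 74.3, 64.5 and 79.4 CPM in sham and 159.7, 142 and 166 CPM in CCI, or 1.10 ± 0.09 (SE) on the log2 scale. Among fallen genes, ENSRNOG00000001747 was at 23.1, 26.8 and 17.4 CPM in sham and 6.14, 6.71 and 6.95 CPM in CCI, or -1.77 ± 0.16 on the log2 scale. ENSRNOG00000054978 was at 91.1, 84.3 and 94.0 CPM in sham and 56.6, 61.6 and 57.1 CPM in CCI, or -0.62 ± 0.06 on the log2 scale. In these 4 the groups did not overlap.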

How the data were processed

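Per the labels' protocols, total RNA came from Trizol extraction and a NEBNext Ultra RNA kit made the libraries. Each library has its own deposited table of unnormalized whole-number counts. The genome build was rn4 and DESeq2 1.16.1 was among the tools, per the submitters' processing notes. Aligner, counter, annotation and strand setting: not given in the sources used here. Overlapping or antisense genes and near-identical copies may share reads. Which annotation release the identifiers follow was not checked, and no gene coordinates are printed for that build.

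With edgeR 4.0.16 in R 4.3.3, the 6 libraries were scaled by TMM and fitted with a quasi-likelihood negative binomial model with 4 residual degrees of freedom, without a replicate block, and p-values were adjusted by Benjamini and Hochberg over 14927 genes, of which 734 had no Ensembl identifier. The common biological coefficient of variation was 13.0%. The standard error of each log2 fold change came from its F statistic. Principal components used log2 CPM with a prior count of 2. On simulated data for this comparison over 14927 genes, the test recovered 33 of 67 genes given a 1.5-fold change (49.3%). It recovered 54 of 67 given a 2-fold change (80.6%) and 62 of 66 given a 4-fold change (93.9%). Beside these recovered genes it made 14 false calls in total. The simulated counts were drawn independently with the dispersions fitted to these 6 libraries. The dependence of the calls on single libraries was therefore outside this check. Same-group libraries differed by a chi-square per gene of 7.76 to 14.3, so none was counted as a repeat.

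The members, gene lists and alternatives were chosen with earlier results of these data known. Genes named are the called genes with the largest changes and smallest p among those with a name, up to 4 called members of each list in each direction, and a set of anchor genes by value. That rule gave 4 identifiers only where no table pairs identifiers with symbols. Names from general knowledge were used beside it, as the comparison's own definition allows, and other called members of a list were named too. The first names were written after the identifiers of the most abundant genes had been seen, 259 of 360 before any comparison and 101 after the first. The level floor for abundant names, 200 CPM, is the one meant when those names were written; a floor of 100 CPM, tried after levels had been seen, was not kept. Copies of the multi-copy RT1 genes were not named. Alternatives were DESeq2 1.42.0, limma 3.58.1 voom with and without quality weights, RLE and upper-quartile scaling, other filters and thresholds, all 15 libraries, Ensembl rows only, the replicate block, and leaving out each library. Single values of some genes are not reported here.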

Additional observations from a re-analysis of the deposited data

How the results depend on the processing

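With 491 genes called in the comparison as reported, DESeq2 called 1104, voom with quality weights 993 and a threshold of 0.1 on the adjusted p 1200, while asking for at least 1 on the log2 scale in either direction left 155. Fitting all 15 libraries called 4. Leaving out 1 library gave between 1 and 355 calls, the lowest without sham replicate 1, where 2272 genes still had an unadjusted p under 0.05. Limma voom called 383, RLE scaling 452, upper-quartile scaling 483, no filter 605, filterByExpr 428, a mean count of at least 50 415 and Ensembl rows only 494. The cause was not tested. All 491 calls kept their sign in the fits that tested all of them. The groups did not overlap in any of the 491, and each fit used the same counts, so a change of sign was hardly possible. Kept signs, here and for the named genes below, therefore lend the calls no weight. Of the 45 called genes with a name, 0 kept the call under all 17 alternatives run for single genes, 0 changed sign, and 45 kept the call with DESeq2, 38 with voom and 0 with all 15 libraries. Replicate numbers are titles only. Same-numbered libraries correlated at -0.06, 0.02 and 0.12 in their deviations from the group means, and differently numbered ones between -0.11 and 0.10. Such values from 3 libraries a group cannot tell whether the numbers pair the samples. The replicate block called 400 genes, 284 of them shared with the 491. With 3 libraries a group, depth limits genes near 1 CPM, such as Ccl2.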
